A study of Mus musculus with 6 samples.

Results

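The pharyngeal pouch transcription factors Pax1, Pax9, Eya1, Six4, Tbx1, Hoxa3, Trp63 and Gcm2 were read out from bulk RNAseq of sorted medullary thymic epithelial cells (mTEC). These 8 genes were taken by symbol from the 52636 gene rows of the count table, and all 8 had a row. The libraries came from thymi of C57BL/6 mice at 6 weeks of age, with no genetic alteration named, and 3 were made per population with an ultra-low input kit. All cells of both populations bound UEA1, were low for MHCII and lacked Sca1 and CD63, and they are given as CD80 negative in the labels and as CD80 low in the study's text. Tuft-like mTEC stained for both CD117 and CD66a, and non-tuft-like mTEC for neither, so the latter are defined by absence and can hold several mTEC types. It is not stated that the libraries of a population came from separate animals, so the p-values measure the spread between these libraries, which may be technical.

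The thymus and the parathyroid gland both arise from the endoderm of the third pharyngeal pouch. In the embryo Hoxa3, Pax1, Pax9, Eya1 and its homeobox partner Six4 act there in a shared network that the pouch needs for growth and for separation from the pharynx. Gcm2 marks the parathyroid domain, Foxn1 the thymic domain, Tbx1 patterns the pharynx, and Trp63 (p63) maintains the basal cells of stratified epithelia, thymic epithelium included. The comparison asks how much of this network adult mTEC carry, and whether it differs between tuft-like and other mTEC of the same surface phenotype.

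The libraries held 20097617 to 48369825 reads on genes. Reads that the counting tool HTSeq assigned to no gene feature made up 19.7% (tuft-like replicate 3) to 61.6% (tuft-like replicate 1) of all reads. Whether these reads lay within introns or between genes is not given. Levels are CPM after TMM scaling, that is counts relative to each library's size. A positive log2 fold change means a higher level in tuft-like mTEC. Genes were tested with edgeR's quasi-likelihood test over all 32496 genes with enough counts, and those with a Benjamini-Hochberg adjusted p (FDR) under 0.05 are called. All 8 tuft cell genes checked (Dclk1, Trpm5, Pou2f3, Avil, Il25, Sh2d6, Ltc4s and Gnat3) were called higher in the libraries labelled tuft-like. Epcam, the epithelial adhesion gene, lay between 229 and 1041 CPM over the 6 libraries, and replicate 1 of each population had the lowest value.

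Of the 8 pouch factors 5 were expressed in every library and 3 were at background. Eya1 rose 3.77-fold in tuft-like mTEC and was the only factor called by this test. Trp63 and Pax9 stood lower in every tuft-like library, and Six4 higher, but none of these differences was called. Pax1 averaged 18.6 and 18.1 CPM in non-tuft-like and tuft-like mTEC, a difference below the spread of the libraries. Tbx1, Hoxa3 and Gcm2 stayed at or below 3.79 CPM in all libraries. The test called 1 of the 7 pouch factors tested (Tbx1 was too low), higher in tuft-like mTEC, where 1.16% of all tested genes were called higher and 0.951% lower.

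**Figure D1:**
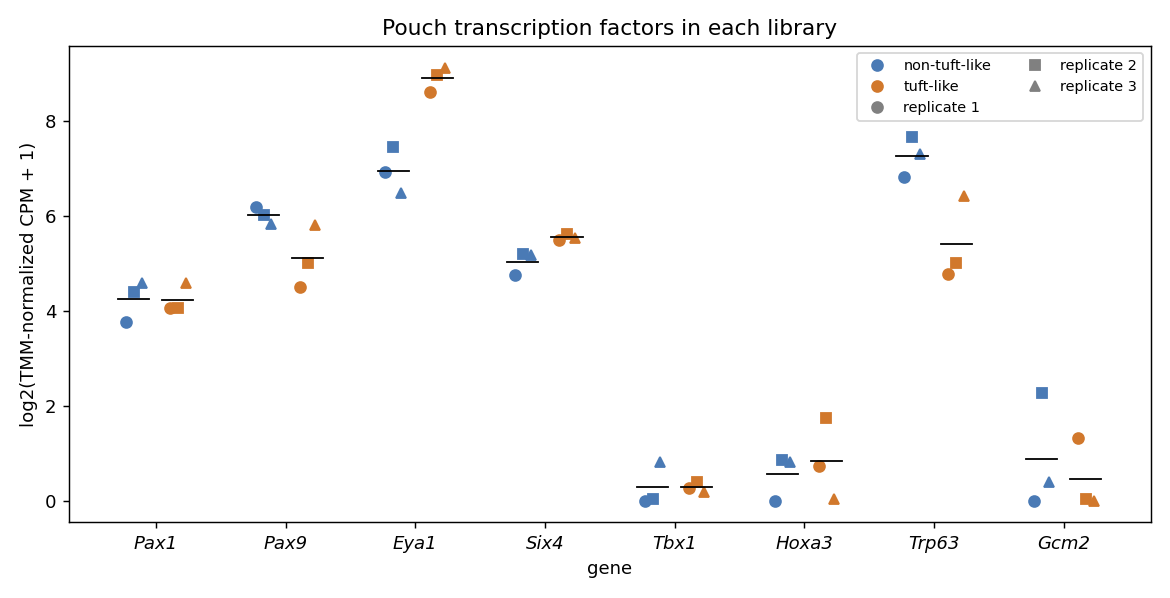
Level of each pouch factor in each of the 6 libraries, as log2 of TMM-normalized CPM plus 1; blue points are non-tuft-like and orange points tuft-like libraries, the marker shape gives the replicate number, and black bars are means of 3 libraries. Eya1 stands apart upwards in tuft-like mTEC and Trp63 downwards, while Tbx1, Hoxa3 and Gcm2 form the lowest points, at 3.79 CPM or less.

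Several pouch factors have close relatives, so the coding sequences were compared to see how far reads could be shared. In the GENCODE M21 transcripts the longest exact run that Pax1 and Pax9 share is 26 bases, in coding exon 2 of each gene. In Pax1 it lies at chr2:147365894-147365919 and in Pax9 at chr12:56696735-56696760 (mm10, plus strand in both). Eya1 shares at most 21 bases with Eya3, in coding exon 10 of each (chr1:14208901-14208921, minus strand, and chr4:132701084-132701104, plus strand). Trp63 shares at most 23 bases with Trp73, in coding exon 5 of Trp63 (chr16:25862318-25862340, plus strand) and exon 4 of Trp73 (chr4:154067702-154067724, minus strand). These runs are shown in capitals, with the flanking coding sequence in lower case, because they bound the coding sequence over which a read could not tell the relatives apart.
Pax1: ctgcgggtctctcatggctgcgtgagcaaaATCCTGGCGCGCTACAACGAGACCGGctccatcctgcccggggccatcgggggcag
Pax9: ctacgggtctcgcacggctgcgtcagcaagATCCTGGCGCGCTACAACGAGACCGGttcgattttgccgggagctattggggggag
Eya1: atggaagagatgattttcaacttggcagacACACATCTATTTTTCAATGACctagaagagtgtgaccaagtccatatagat
Eya3: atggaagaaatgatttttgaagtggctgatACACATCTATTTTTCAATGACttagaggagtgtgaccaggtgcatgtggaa
Trp63: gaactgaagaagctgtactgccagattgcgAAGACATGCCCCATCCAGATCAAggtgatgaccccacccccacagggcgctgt
Trp73: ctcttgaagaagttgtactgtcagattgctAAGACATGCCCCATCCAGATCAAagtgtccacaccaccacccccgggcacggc
The other pairs compared shared between 14 bases (Trp63 and Trp53) and 33 bases (Hoxa3 and Hoxb3). The read length is not given in the sources used here.

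Eya1 (ENSMUSG00000025932, chr1:14168954-14310235 of mm10, minus strand) encodes a transcriptional coactivator and phosphatase that binds Six4. Non-tuft-like replicates 1, 2 and 3 held 121, 175 and 88.1 CPM, and tuft-like replicates 1, 2 and 3 held 392, 497 and 558 CPM. The lowest tuft-like library was above the highest non-tuft-like library. The means were 128 ± 43.8 CPM for non-tuft-like and 482 ± 83.9 CPM for tuft-like libraries (SD, n = 3 each), a log2 fold change of 1.91 (approximate SE 0.34, 95% interval 1.16 to 2.67, edgeR FDR 0.0155). For a single gene the exact permutation p cannot go below 0.10 with 3 libraries against 3 (two-sided), and it was 0.10 here, as for Pax9, Six4 and Trp63. Per kb of exon Eya1 ranked at the 97.6th percentile of tested genes in tuft-like and at the 89.2nd in non-tuft-like mTEC. The call was lost without non-tuft-like replicate 1 (edgeR FDR 0.0950), non-tuft-like replicate 3 (0.0555) or tuft-like replicate 2 (0.0686), and the log2 fold change then stayed between 1.67 and 1.89. No exon of Eya1 overlaps another annotated gene. Eya1 and Six4 are also known from muscle. The sum of 10 skeletal muscle genes was 385 to 553 CPM in non-tuft-like and 197 to 261 CPM in tuft-like libraries, but without Actn3, the muscle gene called lower, it was 215 to 319 and 191 to 254 CPM and overlapped. Myod1 and Myf5 had 39 counts or fewer in each library. Myog, another gene of that list, was clearly present and lay between 72.5 and 93.5 CPM among non-tuft-like libraries. Among tuft-like ones it rose from 48.2 over 92.7 to 130 CPM by replicate number, the order that Eya1 also had there. The order of Myog and Eya1 was not shared among non-tuft-like libraries. Myog overlapped between the populations and was not called (edgeR FDR 0.99999). The part of muscle transcripts in the Eya1 and Six4 values was not tested. Where 1.16% of all tested genes were called higher, Tek alone was called of 6 endothelial genes (log2 fold change 2.93, edgeR FDR 0.00565). Their sum was 36.1 to 65.5 CPM in non-tuft-like and 176 to 364 CPM in tuft-like libraries. Tek itself had 169, 142 and 225 CPM in tuft-like replicates 1, 2 and 3, and without it the other 5 genes summed to 13.9, 28.8 and 31.8 CPM in non-tuft-like and 195, 33.8 and 6.02 CPM in tuft-like libraries, in order of replicate, which overlap. The part of endothelial transcripts in the Eya1 difference was not tested. In bulk libraries more cells that carry a transcript and more RNA per cell cannot be told apart, here and in the results that follow.

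The family around Eya1 had another composition in each population. Per kb of exon, Eya1 made up 36.4%, 39.1% and 32.4% of the summed level of the 4 Eya genes in non-tuft-like replicates 1, 2 and 3. In tuft-like replicates 1, 2 and 3 the share was 77.3%, 82.9% and 81.2%. The groups did not overlap (exact permutation p 0.10, two-sided, the smallest possible). On the same scale Eya2 stood slightly above Eya1 in every non-tuft-like library (16.0, 27.2 and 14.9 against 15.5, 22.4 and 11.3 CPM per kb in replicates 1, 2 and 3) and far below it in every tuft-like library (7.63, 5.02 and 11.3 against 50.2, 63.7 and 71.4). The log2 fold change of Eya2, -1.28 (SE 0.40), was not called by edgeR's quasi-likelihood test (FDR 0.202). Eya3 (-0.54) and Eya4 (-0.19) were not called either (edgeR FDR 0.961 and 0.99999).

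**Figure D2:**
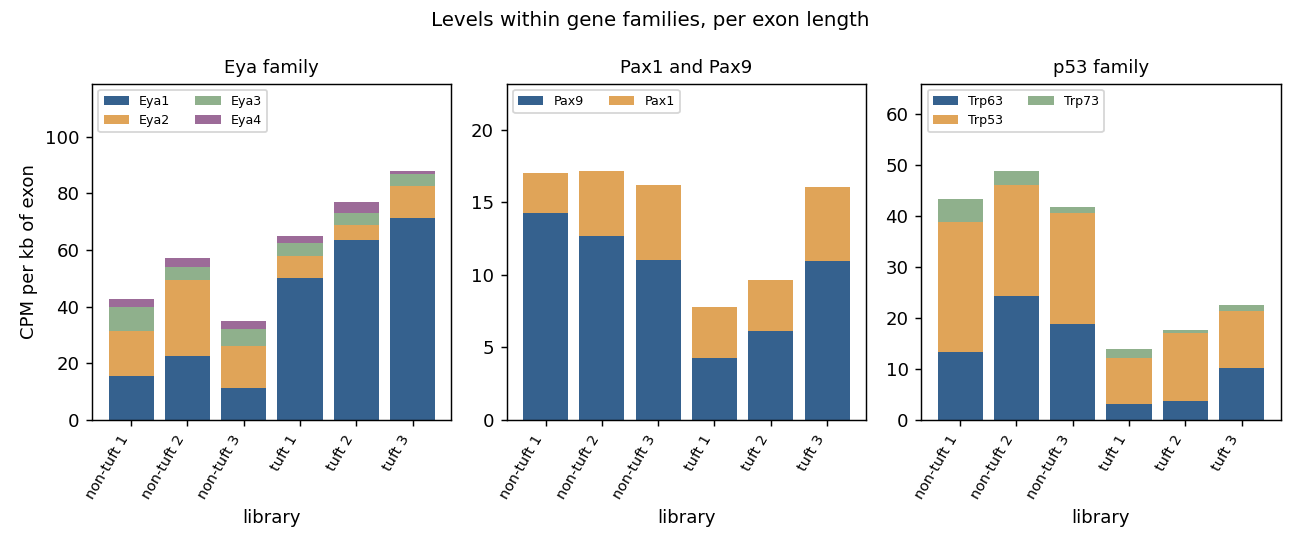
Stacked levels of related genes in each library, in TMM-normalized CPM per kb of exon on linear axes that start at 0; each bar is 1 library and each colour 1 gene. Eya1 takes 77.3% to 82.9% of the Eya sum in tuft-like libraries against 32.4% to 39.1% in non-tuft-like libraries, and Trp63 takes 22.6%, 21.2% and 45.2% of the p53 family sum in tuft-like replicates 1, 2 and 3 against 30.8% to 49.6% in non-tuft-like libraries, so these shares overlap (exact permutation p 0.30, two-sided).

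Six4 (ENSMUSG00000034460, chr12:73099609-73113456, minus strand) is a homeobox factor and a partner of Eya proteins. Its level was 25.8, 35.8 and 35.0 CPM in replicates 1, 2 and 3 of non-tuft-like mTEC, against 44.1, 48.4 and 45.3 CPM in those of tuft-like mTEC. All tuft-like libraries were above all non-tuft-like libraries, but the difference was small. The means were 32.2 ± 5.52 and 45.9 ± 2.21 CPM (SD, n = 3), with a log2 fold change of 0.51 (95% interval -0.16 to 1.18) that edgeR did not call (FDR 0.865). On the log2 scale Eya1 differed by 1.91 and Six4 by 0.51. No test of the difference between these changes was made. Of the 11 tested genes of the list around Eya1 and Six4, Eya1 was called higher and 0 lower by edgeR's quasi-likelihood test. Over all tested genes 1.16% were called higher and 0.951% lower. At an unadjusted p under 0.05 the list had 1 higher (Eya1) and 1 lower (Eya2), against 2914 of all 32496 tested genes in either direction. DESeq2 also called Eya2 lower, and neither the likelihood ratio test nor limma voom did. Over all tested genes DESeq2 called 930 lower.

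Trp63 (ENSMUSG00000022510, chr16:25683763-25892102, plus strand) stood at 112, 203 and 158 CPM in the 3 non-tuft-like libraries, replicates 1 to 3, and at 26.4, 31.2 and 85.2 CPM in the tuft-like ones. Every tuft-like library was lower than every non-tuft-like library, and tuft-like replicate 3 lay closest to them. The means were 158 ± 45.5 and 47.6 ± 32.7 CPM (SD, n = 3). The log2 fold change of -1.73 (SE 0.46, 95% interval -2.74 to -0.71), a level 3.31-fold higher in non-tuft-like mTEC, did not pass edgeR's quasi-likelihood test (FDR 0.107). Of 15 alternative settings 9 called it (FDR 0.00184 to 0.415 over all 15), among them DESeq2 (0.00184), limma voom (0.0229), the likelihood ratio test (0.0144), the fit with the replicate number as a block (0.0292) and the fit without tuft-like replicate 3 (0.00662, log2 fold change -2.49). The table counts whole genes, so p63 isoforms with and without the N-terminal transactivation domain were not separated.

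Among genes known to accompany p63 in basal epithelium, 15 had a negative and 3 a positive log2 fold change. Of these 18 genes, all tested, 4 were called lower and 0 higher by edgeR, against 0.951% called lower and 1.16% called higher in the whole table. The unadjusted p was under 0.05 for 11 lower and 1 higher. DESeq2 called 8 lower and 1 higher, the likelihood ratio test 7 and 1, and limma voom 7 and 0. Over all 32496 tested genes, 2914 had an unadjusted p under 0.05. DESeq2 called 930 of all tested genes lower and 974 higher, the likelihood ratio test 601 and 635, and limma voom 445 and 460. The median log2 fold change of the list was -1.55, against 0.02 over all tested genes. The 4 called genes were Krt14 (log2 fold change -3.49, edgeR FDR 0.000885), the basal keratin; Perp (-2.39, FDR 0.0308), a desmosome component; Cdh3 (-2.51, FDR 0.0125), P-cadherin; and Sfn (-2.15, FDR 0.0132), stratifin. Krt14 was called in all 15 alternative settings. Perp lost its call when replicate 2 of either population was left out (edgeR FDR up to 0.176), Sfn without tuft-like replicate 2 (0.0814), and Cdh3 without replicate 2 of either population or replicate 3 of the non-tuft-like one (up to 0.0742). Krt5, the partner keratin of Krt14, stood at 247, 371 and 395 CPM in non-tuft-like libraries and at 10.1, 13.2 and 102 CPM in tuft-like ones and was not called (edgeR FDR 0.0985). As with Trp63, tuft-like replicate 3 held the highest tuft-like value of Krt5.

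Pax9 (ENSMUSG00000001497, chr12:56691767-56712822, plus strand) is a paired-domain factor that the pouch endoderm needs for the thymus to form. Replicates 1, 2 and 3 of non-tuft-like mTEC held 71.9, 64.1 and 55.8 CPM, and those of tuft-like mTEC 21.5, 31.1 and 55.3 CPM. The populations did not overlap, but both replicates 3 were nearly equal. The means were 63.9 ± 8.07 and 36.0 ± 17.45 CPM (SD, n = 3), and the log2 fold change of -0.83 (SE 0.37) was not called (edgeR FDR 0.546). None of the 15 alternatives called it, and the lowest FDR among them was 0.0681, without tuft-like replicate 3, where the log2 fold change was -1.32. Of its 5056 exonic bp, 189 overlap Slc25a21 on the opposite strand, and whether reads were counted by strand is not given in the sources used here.

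Pax1 (ENSMUSG00000037034, chr2:147361925-147393295, plus strand) is the closest relative of Pax9. Its level was 12.5, 20.2 and 23.1 CPM in replicates 1, 2 and 3 of non-tuft-like mTEC and 15.7, 15.6 and 23.1 CPM in those of tuft-like mTEC, so the populations overlapped fully. The means were 18.6 ± 5.45 and 18.1 ± 4.25 CPM (SD, n = 3), and the log2 fold change was -0.04 with a 95% interval of -1.04 to 0.97 (edgeR FDR 0.99999). That interval holds the estimate for Pax9. Per kb of exon Pax9 made up 83.6%, 73.8% and 68.2% of the sum of Pax1 and Pax9 in the non-tuft-like libraries, in order of replicate, and 54.8%, 63.8% and 68.1% in the tuft-like ones. The shares of replicate 3 of both populations were nearly equal (exact permutation p 0.10, two-sided, the smallest possible). Exons of AI646519, an antisense gene, overlap 183 of the 4492 exonic bp of Pax1.

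Among all tested genes 16% had populations that did not overlap, and of the pouch factors 4 did not (Eya1 and Six4 higher, Trp63 and Pax9 lower in tuft-like mTEC).

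Markers of cornifying keratinocytes were lower as a sum in every tuft-like library, although Krt10 and Lor overlapped between the populations. The summed level of 8 such genes (Krt1, Krt10, Ivl, Lor, Krtdap, Dmkn, Sbsn and Flg) was 3232, 5134 and 5370 CPM for replicates 1, 2 and 3 of non-tuft-like mTEC, against 136, 478 and 1310 CPM for those of tuft-like mTEC. Tuft-like replicates 1, 2 and 3 stood in the same order for this sum, for Trp63 and for Pax9, with replicate 3 highest. Epcam rose in that order too (248, 784 and 1041 CPM), and reads assigned to no gene feature fell in it (61.6%, 47.6% and 19.7% of all reads). The order is thus not particular to these genes. All 8 keratinocyte genes had counts in every library. Of these 8, 4 were called lower in tuft-like mTEC by edgeR, against 0.951% of all tested genes. In non-tuft-like libraries the order was not shared, since replicate 1, with the lowest sum, had the highest Pax9 level. Their part in the differences of Trp63 and Pax9 was not tested. Eya1 was also highest in tuft-like replicate 3, where the keratinocyte sum was highest among tuft-like libraries.

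**Figure D3:**
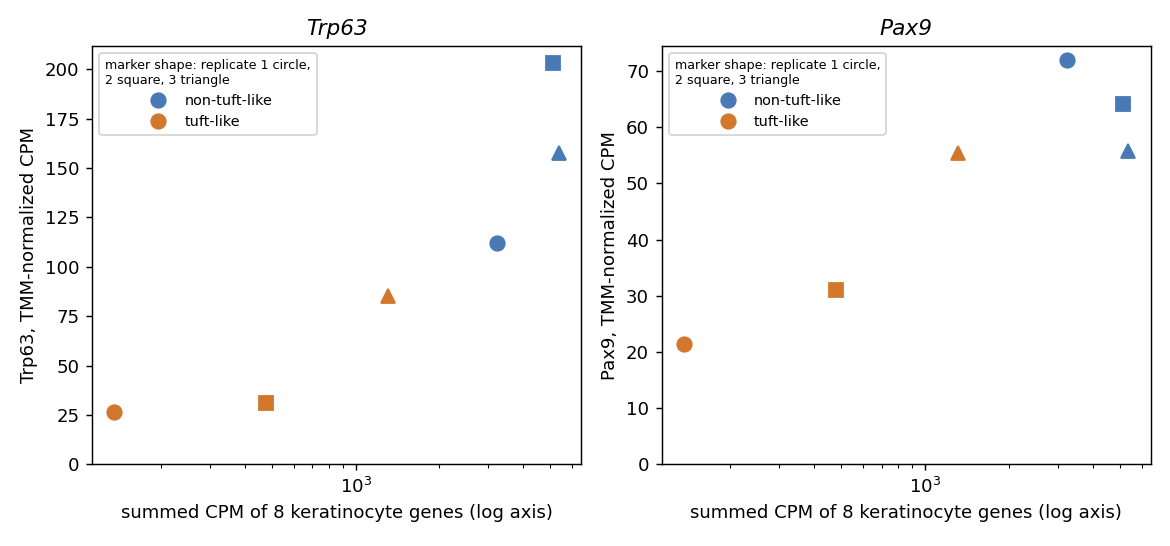
Trp63 (left) and Pax9 (right), each in TMM-normalized CPM on a linear axis, against the summed CPM of 8 keratinocyte genes on a log axis, with 1 point per library. The tuft-like libraries, at sums of 136 to 1310 CPM, lie to the left of the non-tuft-like libraries, and tuft-like replicate 3 lies nearest to them.

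Tbx1, Hoxa3 and Gcm2 were compared with olfactory receptor genes, 1092 genes that served as a stand-in for background reads. Since mTEC can express tissue-restricted genes, some of these receptor reads may be true transcripts, which was not tested. Background here means the level of these receptor genes. In all 6 libraries the counts per exon kb of Tbx1, Hoxa3 and Gcm2 stayed below the 99th percentile of the receptor genes. The other 5 pouch factors exceeded it in all 6 libraries (Eya1 by at least 4.11 times, Trp63 by at least 1.14 times). Tbx1 (ENSMUSG00000009097, chr16:18580979-18590671, minus strand), the T-box factor of the pharynx, had 0, 1 and 24 counts in non-tuft-like and 5, 11 and 5 counts in tuft-like replicates 1, 2 and 3. Its low counts kept it out of the test. A count of 0 allows a level of up to 0.0947 CPM in non-tuft-like replicate 1, where Tbx1, Hoxa3 and Gcm2 were all at 0. Such limits cover counting error only, since the reads carry no molecular identifiers.

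Hoxa3 (ENSMUSG00000079560, chr6:52169062-52213336, minus strand), the homeobox factor of the caudal pouches, gave 0, 38 and 24 counts for non-tuft-like libraries, in order of replicate, and 16, 80 and 1 for tuft-like ones. The fitted log2 fold change of 0.94 had a 95% interval of -3.78 to 5.66, so a difference was not detectable at this depth (edgeR FDR 0.99999), and without tuft-like replicate 2 it was -0.62. Its exons overlap 5 other annotated genes, 4 of them on the other strand. Of the cofactors that bind DNA with Hox proteins, Meis1 averaged 62.1 and 79.5 CPM and Meis2 108 and 86.6 CPM in non-tuft-like and tuft-like mTEC. Of the 9 tested genes of Hox group 3 and its partners edgeR called 0, with 0 at an unadjusted p under 0.05 and 0 by DESeq2, the likelihood ratio test or limma voom. Over all 32496 tested genes 2914 had an unadjusted p under 0.05.

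Gcm2 (ENSMUSG00000021362, chr13:41101427-41111035, minus strand), the master factor of the parathyroid, had 0, 178 and 10 counts in non-tuft-like and 36, 1 and 0 counts in tuft-like replicates 1, 2 and 3. Most of its counts lay in non-tuft-like replicate 2, where its level was 3.79 CPM. The fitted log2 fold change was -1.44 (95% interval -6.88 to 3.997, edgeR FDR 0.99999), and it was 1.63 without non-tuft-like replicate 2. Pth, the parathyroid hormone gene, was also highest in non-tuft-like replicate 2, at 1000.2 CPM, with 1.42 and 229 CPM in the other two libraries of that population and 0.992 CPM or less in the tuft-like ones. Of the 8 parathyroid genes listed, edgeR called Pth, Gata3 and Vdr, the vitamin D receptor (log2 fold change -1.88, edgeR FDR 0.00557), lower in tuft-like mTEC. Over all tested genes 0.951% were called lower. Gata3 is also on the list of other regulators below. Casr, on the same parathyroid list, averaged 118 and 90.6 CPM in non-tuft-like and tuft-like mTEC. Its values overlapped and it was not called (edgeR FDR 0.99999). Pth lost its call without any 1 of the 3 tuft-like libraries, under limma voom and with the replicate number as a block (FDR up to 0.865 over these).

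Levels of different genes can be compared only per length. In TMM-normalized CPM per kb of exon, the order in non-tuft-like mTEC was Trp63 (18.8 ± 5.42, SD, n = 3), Eya1 (16.4 ± 5.61), Pax9 (12.6 ± 1.60), Pax1 (4.14 ± 1.21) and Six4 (2.97 ± 0.508). The ranges of Trp63, Eya1 and Pax9 overlapped, as did those of Pax1 and Six4, while Pax9 and Pax1 did not overlap. In tuft-like mTEC the order was Eya1 (61.8 ± 10.8, SD, n = 3), Pax9 (7.11 ± 3.45), Trp63 (5.68 ± 3.89), Six4 (4.23 ± 0.204) and Pax1 (4.04 ± 0.947). There Eya1 did not overlap any other pouch factor, and the ranges of the neighbours below it overlapped. Gcm2, Hoxa3 and Tbx1 averaged at most 0.414 CPM per kb in either population.

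The other regulators of pouch and thymus development were read out from a list of 23 genes, 19 of them tested. By edgeR's test 2 of these 19, Foxn1 and Gata3, were called lower in tuft-like mTEC and 0 higher. Over all tested genes 0.951% were called lower and 1.16% higher. At an unadjusted p under 0.05 edgeR's test gave 3 lower and 2 higher, against 2914 of all 32496 tested genes in either direction. DESeq2, the likelihood ratio test and limma voom each called 2 lower and 1 higher. Over all tested genes these 3 tests called 930, 601 and 445 lower and 974, 635 and 460 higher, in that order. The list's median log2 fold change was -0.35, against 0.02 over all tested genes.

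Foxn1, the forkhead factor that drives thymic epithelial fate downstream of the pouch network, held 165, 146 and 142 CPM in the non-tuft-like libraries, in order of replicate, and 11.1, 17.2 and 12.3 CPM in the tuft-like ones. The populations were far apart, with a log2 fold change of -3.48 (SE 0.31, edgeR FDR 0.000430). Gata3, a zinc finger factor of the early pouch, fell from 40.3, 58.0 and 58.7 CPM to 8.55, 12.6 and 10.2 CPM. Its log2 fold change was -2.33 (SE 0.36, edgeR FDR 0.00749), and both genes were called in all 15 alternative settings. Cortical thymic epithelium also carries Foxn1. A list of 7 cortical genes summed to 570 to 1261 CPM in non-tuft-like but 240 to 361 CPM in tuft-like libraries. Ccl25 and Ctsl were called lower, where 0.951% of all tested genes were called lower. Ctsl alone held 274, 647 and 629 CPM in non-tuft-like and 88.5, 130 and 176 CPM in tuft-like replicates 1, 2 and 3. Psmb11, Cxcl12 and Enpep overlapped between the populations. Enpep averaged higher in tuft-like mTEC (14.0 against 8.78 CPM). The part of cortical transcripts in the Foxn1 difference was not tested.

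Sox9, an endoderm and progenitor factor, had higher values in tuft-like mTEC, at 312, 481 and 782 CPM in replicates 1, 2 and 3 against 130, 195 and 184 CPM in those of non-tuft-like mTEC. Its log2 fold change of 1.63 (SE 0.38) was not called (edgeR FDR 0.0627), although 9 of 15 alternatives called it. Hhex (log2 fold change 1.66, mean 4.75 CPM in tuft-like mTEC) and Tbx2 (-1.53, mean 3.52 CPM in non-tuft-like mTEC) were not called, and both were below the background level of olfactory receptor genes in every library.

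**Figure D4:**
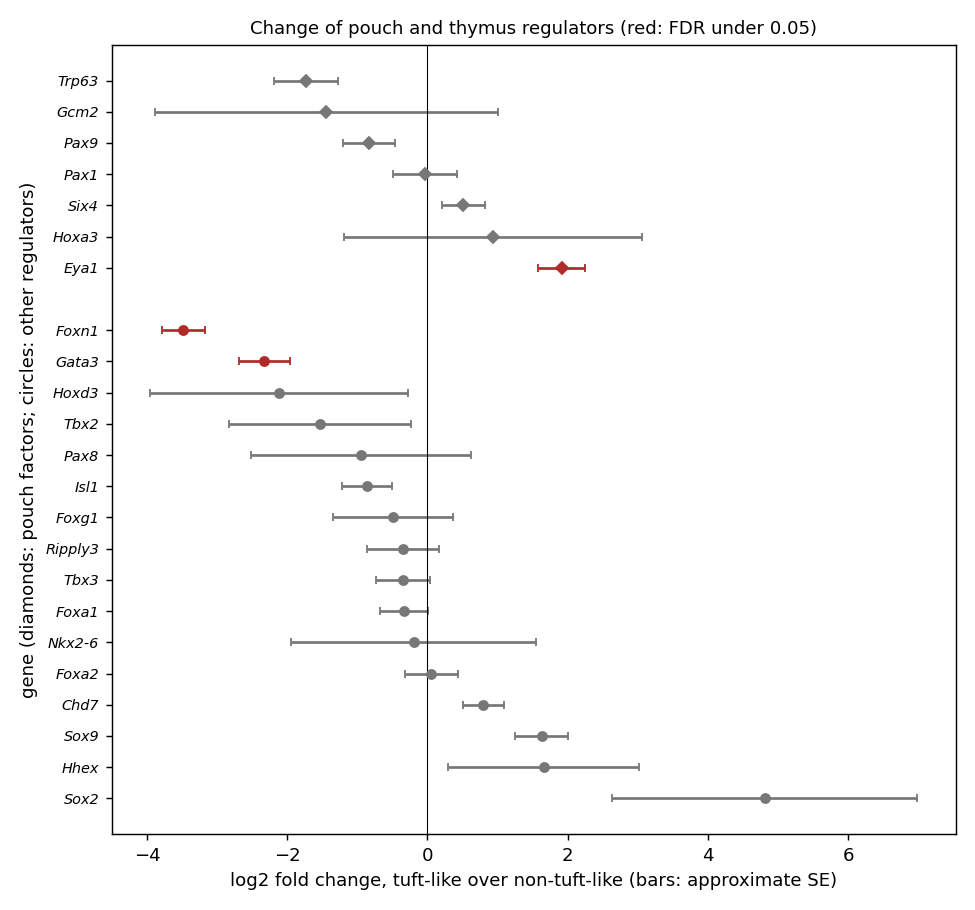
Log2 fold change, tuft-like over non-tuft-like, of the 7 tested pouch factors (diamonds) and 16 of the 19 tested other regulators (circles), with approximate standard errors as bars and genes with an edgeR FDR under 0.05 in red. Eya1 is called higher and Foxn1 and Gata3 lower, and the widest bars belong to genes near background such as Gcm2, Hoxa3, Hoxd3 and Sox2.

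Signals that act on the pouch were given as a list of 16 genes, 14 of them tested, with a median log2 fold change of -0.81. Wnt4, a Wnt ligand of thymic epithelium, went from 24.4, 26.2 and 35.5 CPM in the non-tuft-like libraries to 6.86, 4.76 and 5.05 CPM, at the background of olfactory receptor genes in all 3 tuft-like ones. It was the only one called by edgeR's quasi-likelihood test (log2 fold change -2.37, SE 0.47, edgeR FDR 0.0293), where 0.951% of all tested genes were called lower. The call of Wnt4 was lost without any 1 of the 3 non-tuft-like libraries, without tuft-like replicate 2 or with the replicate number as a block (edgeR FDR up to 0.173). Fgfr2, the receptor for Fgf7 and Fgf10, ranged from 22.4 to 91.1 CPM in non-tuft-like and from 14.6 to 21.9 CPM in tuft-like libraries and was not called (edgeR FDR 0.154). Wnt5b (means 2.11 and 14.9 CPM, edgeR FDR 0.392) and Chrd (5.15 and 0.891 CPM, edgeR FDR 0.99999) were not called, and Bmp4 stood at 5.24 and 7.91 CPM. Shh, Nog and Fgf8 averaged at most 0.347 CPM in either population. DESeq2 also called Fgfr2 lower and Wnt5b higher, and of the 15 alternative settings 3 called Fgfr2 and 1 called Wnt5b. Over all tested genes DESeq2 called 930 lower and 974 higher.

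The genes whose levels followed a pouch factor most closely were sought over the 6 libraries by Pearson's r of log2(CPM + 1), as a description with no test. The libraries fall into 2 populations, and 11098 genes were searched over only 6 libraries, both of which raise such values. For Eya1 they were Cd300lf (r 0.999, from 62.8 to 154 CPM over the tuft-like libraries and from 1.68 to 10.98 CPM over the others) and Upp1 (r 0.998). For Trp63 they were Sptssa (r 0.9999) and Cxcl5 (r 0.996), for Pax9 Serpinb1a (r 0.999) and Msln (r 0.998), for Six4 Sel1l2 and Phactr2 (r 0.995 for both), and for Pax1 Dis3 (r 0.987) and Hk2 (r 0.985). The pattern nearest to Hoxa3 was that of Heatr5b (r 0.981), followed by Mb21d2 (r 0.978), and nearest to Gcm2 that of Prkra (r 0.991), followed by Tlr4 (r 0.970), although both factors were at background.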

How the data were processed

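Ultra-low input RNA libraries of 3 tuft-like and 3 non-tuft-like samples were grouped by their titles. Adapters were removed by the authors in Trimmomatic 0.36, mapping to mm10 was done in STAR 2.7.3a, and the raw counts that HTSeq gave per gene (intersection-nonempty mode) were deposited. The annotation release and strand setting are not given in the sources used here. Here 92 ERCC rows and 5 HTSeq summary rows were left out, and GENCODE M21 named 99.7% of gene rows and gave union exon lengths.

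The software was edgeR 4.0.16, DESeq2 1.42.0 and limma 3.58.1 in R 4.3.3. The filter was filterByExpr with a minimum count of 10, scaling was by TMM, and the populations were compared by the quasi-likelihood test of edgeR without covariates. The p-values were Benjamini-Hochberg adjusted over all tested genes. Standard errors were taken as the absolute log2 fold change over the square root of F, so they and the 95% intervals are approximate. The steps were tested on simulated counts. A count of 0 was taken to allow 3 counts.

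The pouch factors and all gene lists were chosen with earlier results of these data known. Named were the pouch factors, list genes called or, otherwise, up to 3 of the largest changes per list at 1 CPM or more, and the 2 genes nearest in pattern among those of at least 10 CPM with a named symbol. Epcam, Eya2, Eya3, Eya4, Krt5, Sox2, Hoxd3, Bmp4, Meis1, Meis2, Shh, Nog, Fgf8, Tbx3, Trp53, Ripply3, Myod1, Myf5, Myog, Cxcl12, Enpep and Casr were named outside these rules, after their values were seen. Alternatives were DESeq2, limma voom, edgeR's likelihood ratio test, RLE factors, scaling by library size alone, no filter, at least 1 CPM in 3 libraries, the replicate number as a block and each library left out. Subtraction of background counts per exon kb, estimated from olfactory receptor genes, was added after the data were seen. The values of some listed genes are not reported here.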

Additional observations from a re-analysis of the deposited data

How the results depend on the processing

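The number of genes called was 687, and it moved by more than 1.5 times with library size only (1045), DESeq2 (1904), the likelihood ratio test (1236), no filter (1127) and subtraction of background counts (1054, added after the data were seen). With 1 library left out it ranged from 376 to 922, and the lowest counts came when replicate 2 was left out of the tuft-like (376) or the non-tuft-like population (379). The number of pouch factors called was 1 and became 2, Eya1 and Trp63, under library size only, DESeq2, the likelihood ratio test, limma voom, no filter, at least 1 CPM in 3 libraries, the replicate block and background subtraction. With 1 library left out it ranged from 0 (when tuft-like replicate 2 or replicate 1 or 3 of the non-tuft-like population was left out) to 2 (without tuft-like replicate 3). The cause of these changes was not tested. Eya1, Trp63, Pax9 and Six4 kept their direction in all 15 alternatives. Leaving out 1 library turned the direction of Pax1 (log2 fold change -0.28 to 0.11), Gcm2 (-6.26 to 1.63) and Hoxa3 (-0.62 to 1.47), none of which was called. Deviations of same-numbered libraries from their group means correlated at -0.10, -0.04 and -0.27. These values cannot decide whether same-numbered libraries share animals or a sort, since library quality also differed within a number. Reads assigned to no gene feature were 34.4% in non-tuft-like and 61.6% in tuft-like replicate 1. With the replicate number as a block 737 genes were called.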

Other observations

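Of the 16 tested T-box genes and the 6 tested genes of the Hox A cluster, edgeR's quasi-likelihood test called 0, with 0 at an unadjusted p under 0.05 and 0 by DESeq2, the likelihood ratio test or limma voom. Over all 32496 tested genes 2914 had an unadjusted p under 0.05. The T-box repressor Tbx3 averaged 27.5 and 21.6 CPM in non-tuft-like and tuft-like mTEC, and Tbx21, the T-bet gene, 16.7 and 3.89 CPM (log2 fold change -2.11, edgeR FDR 0.916). Tbx3 was above the background level of olfactory receptor genes in every library, whereas Tbx1 was in none. The Hox A cluster, 11 genes, summed to between 5.52 and 15.9 CPM in non-tuft-like libraries and between 12.8 and 16.1 CPM in tuft-like ones. Hoxa2 (3.42 and 3.92 CPM), Hoxa5 (0.487 and 1.90 CPM) and Hoxa9 (1.45 and 3.38 CPM) were not called (edgeR FDR 0.99999 for each). Hoxa9 exceeded the background level of olfactory receptor genes in no library. Hoxa5 did so in 1 tuft-like library, and Hoxa2 in 1 library of each population.

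Of the 9 Pax genes, all tested, edgeR called 0, with Pax9 lower and Pax6 higher at an unadjusted p under 0.05 and 0 by DESeq2, the likelihood ratio test or limma voom. Pax6, the eye and endocrine paired-box factor, went from 3.50, 5.77 and 7.31 CPM in the non-tuft-like libraries (replicates 1, 2 and 3) to 15.4, 7.48 and 26.6 CPM in the tuft-like ones (edgeR FDR 0.496). These values did not overlap between populations, but tuft-like replicate 2 was close to non-tuft-like replicate 3. Pax6 exceeded the background level of olfactory receptor genes only in tuft-like replicate 3. In the p53 family, Trp53 ranged from 87.9 to 103 CPM in non-tuft-like and from 35.8 to 53.9 CPM in tuft-like libraries, a log2 fold change of -1.04 (edgeR FDR 0.108) that 4 of 15 alternatives called. Ripply3, which restrains Tbx1 activity in the pharynx, averaged 20.4 ± 4.76 and 15.9 ± 8.99 CPM in non-tuft-like and tuft-like mTEC (SD, n = 3), and it was above the background level in all 6 libraries.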
